A study of Mus musculus with 5 samples.

Results

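Red pulp macrophage-like cells were described in single-cell RNA libraries of C57/BL6 mouse spleens, taken 48 h after an intravenous infusion. A barcode counted as a cell with at least 1000 unique molecular identifiers (UMIs, each standing for 1 captured mRNA), at least 500 genes and at most 10% of UMIs from mitochondrial genes. A member then needed at least 10 UMIs of C1qa, C1qb and C1qc together, at least 3 of Vcam1, Hmox1, Spic and Slc40a1 together, and at most 1 of Cd3d, Cd3e and Cd3g. Of 16271 cells in all, 181 met this rule. There was 1 library per infusion: live allogeneic splenic cells (from Balbc donors), live isogeneic splenic cells (from B6 donors), apoptotic allogeneic splenic cells (Balbc), apoptotic isogeneic splenic cells (B6), and saline. All spleens had been digested with enzymes, one portion enriched with magnets for CD45+ cells and another for dendritic cells (DCs), and the portions joined again 1:1. Members numbered 18 of 1186 cells in the live allogeneic library, 24 of 3685 in the live isogeneic, 51 of 2118 in the apoptotic allogeneic, 47 of 6380 in the apoptotic isogeneic and 41 of 2902 in the saline library. The number of mice behind a library and the way apoptosis was induced are not given in the sources used here, and whether donor cells were among the members was not tested. With 1 library a group, no difference below has a replicate check, and every interval (95%) covers counting error only. The live allogeneic library, under the minimum of 20 members, is given as levels and enters no fold comparison.

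Red pulp macrophages of the spleen take up aged red blood cells and return their iron to the circulation. Heme is opened by heme oxygenase 1 (Hmox1) and the iron leaves the cell through ferroportin (Slc40a1), while the transcription factor Spi-C (Spic) is needed for these cells to form. They also clear apoptotic cells with C1q as a bridge and with Axl and Mertk as receptors.

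The members made up 1.52% (exact Clopper-Pearson interval 0.902 to 2.39) of the live allogeneic cells, 0.651% (0.418 to 0.968) of the live isogeneic, 2.41% (1.80 to 3.15) of the apoptotic allogeneic, 0.737% (0.542 to 0.978) of the apoptotic isogeneic and 1.41% (1.02 to 1.91) of the saline cells. The share was thus higher in both allogeneic libraries than in the isogeneic one of the same kind, and the saline share lay between them. More such cells, better release from the tissue and fewer other cells captured cannot be told apart in a share. Members without a UMI of Malat1, a nuclear RNA that most cells hold, were 4 of 18, 2 of 24, 19 of 51, 3 of 47 and 6 of 41 in the order above. The 19 in the apoptotic allogeneic library had a median of 1390 UMIs and count in its share. The rule is also easier to meet in a deep cell: median UMIs per member were 3860, 3959, 2856, 3078 and 3037 in the same order of libraries, against 5008, 3881, 4476, 2295 and 3429 in the other cells. No barcode was a member in 2 libraries, and pairs of libraries shared 0 to 8 barcodes among all cells.

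**Figure D1:**
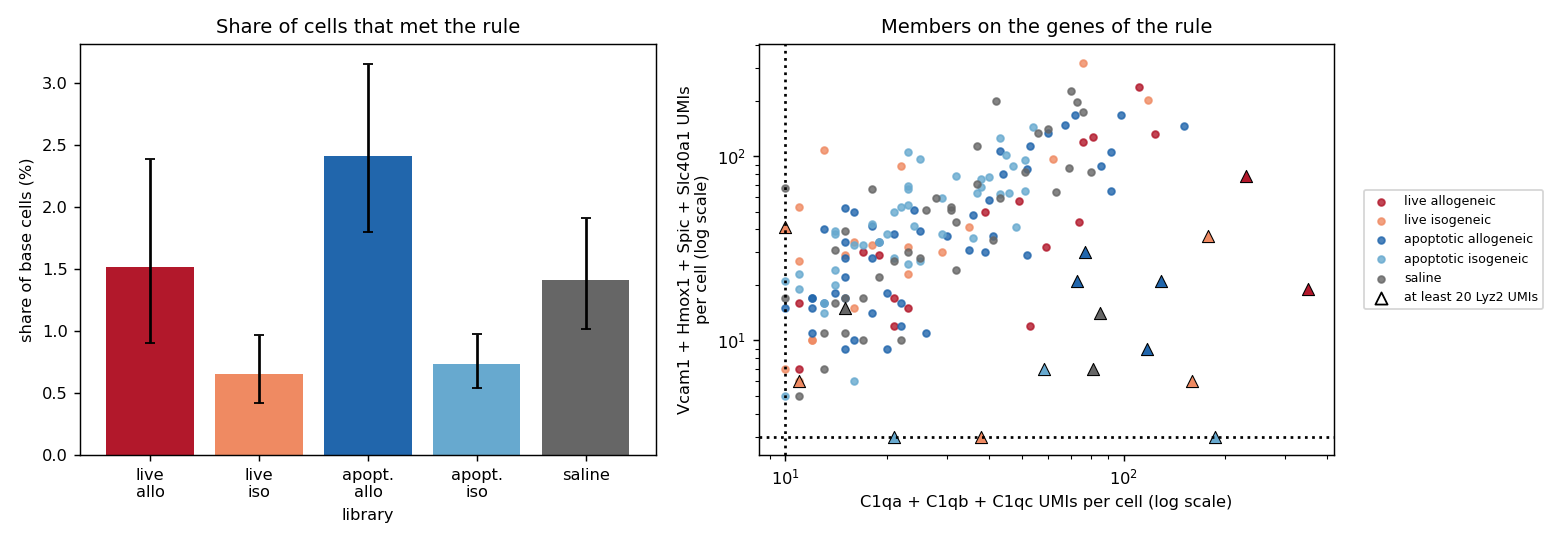
Left: share of cells that met the rule in each library, in percent, with exact Clopper-Pearson intervals (95%). Right: each of the 181 members by its C1q UMIs (x) and its UMIs of Vcam1, Hmox1, Spic and Slc40a1 (y), both on log scales, with dotted lines at the minimums of 10 and 3; triangles are members with at least 20 UMIs of Lyz2, most of which lie low on the y axis for their C1q.

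The genes of the rule chose the cells, and their levels are given as a description. Levels are UMIs summed over the members of a library and scaled to a total of 1000000 UMIs (CPM). C1qa, a chain of the complement starter C1q, was at 3729, 3152, 4344, 3764 and 3982 CPM in live allogeneic, live isogeneic, apoptotic allogeneic, apoptotic isogeneic and saline members, against 5.69 to 14.3 CPM in the other cells of the libraries. Vcam1, an adhesion molecule that marks these macrophages, was at 2174, 3183, 3419, 3214 and 3474 CPM in the same order. Hmox1 was at 1816 (1609 to 2042), 3089 (2792 to 3409), 3116 (2894 to 3350), 4992 (4672 to 5327) and 5077 (4749 to 5422) CPM. Slc40a1 was at 2056, 2964, 2907, 3671 and 4124 CPM, and Spic at 690, 618, 951, 881 and 1072 CPM. Hmox1 and Slc40a1 were thus lowest in the live allogeneic library and highest in saline, with the intervals of apoptotic isogeneic and saline members overlapping for both. Near the C1q minimum the cells were alike: Axl was found in 17 of 22 members with 10 to 12 C1q UMIs and in 16 of 20 cells left out with 7 to 9, and Cd5l in 12 and 10 of them. At the other minimum, 5 members had 3 to 5 UMIs of the other 4 genes, with Axl and Cd5l in 3 each, while 10 cells with 0 to 2 were left out, with Axl in 3 and Cd5l in 2.

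Genes that the rule did not use fitted the label. Among the 25 genes with the largest ratio of members to other cells in every library, 7 were the genes of the rule. Fcna, a lectin that opens the complement pathway, led the other 18, at a log2 ratio of at least 5.67 in each library, and was seen in 14 of 18, 13 of 24, 49 of 51, 44 of 47 and 39 of 41 members in the same order of libraries, against at most 0.66% of B cells (at least 3 UMIs of Cd79a, Cd79b and Ms4a1) of a library. Axl followed with 5.53, the only marker of the label that the rule did not use. Cd5l (4.95), a secreted regulator of lipid synthesis and inflammation, and Trf (4.92), which encodes the iron carrier transferrin, stood in the same group. So did Nr1h3 (4.81), the gene of the sterol sensor LXR-alpha. Csf1r (4.79), the receptor for the macrophage growth factor, Itgad (4.75), the CD11d integrin of red pulp macrophages, and Mrc1 (4.74), the mannose receptor, were there too. The uptake receptor Mertk had 4.85, the chemokine receptor Ccr3 4.94 and the lipid carrier Apoe 4.30. The non-classical monocyte-like cells defined below are a mixed set by their markers. Over them, the log2 ratio was smaller for some, at 2.62 to 3.58 for Apoe and 2.50 to 3.15 for Csf1r. For Fcna it was 5.92 to 7.45. These ratios describe the cells that the rule chose and are no test of it.

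Within the 181 members, Lyz2 split the cells, a division chosen after the values were seen. Lyz2 encodes a lysozyme abundant in most macrophages and monocytes and low in red pulp macrophages. It had no UMI in 147 members, 1 to 3 UMIs in 17, and at least 22 in the remaining 17, with nothing between. These 17 members, called Lyz2-high below, were 2 of 18 in the live allogeneic library, 5 of 24 in the live isogeneic, 4 of 51 in the apoptotic allogeneic, 3 of 47 in the apoptotic isogeneic and 3 of 41 in the saline library. They were deep cells, with a median of 9215 UMIs against 2886 in the other 164, so that they held 46.5%, 35.6%, 18.2%, 13.1% and 12.5% of all member UMIs in that order. In the live allogeneic library both were the deepest members of the series, with 36242 and 35162 UMIs. A level summed over the live members is thus to a large part that of few cells, and most results below are given with and without them.

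The Lyz2-high members carried C1q but little of the heme oxygenase and iron exporter genes, while the ferritin genes that store iron were abundant in both sets. Fth1 was at 11100 CPM in Lyz2-high members against 7846 in the others, but 1 Lyz2-high cell held 736 of the 2277 UMIs there. The median of Fth1 was 42 UMIs in Lyz2-high cells, at a median depth of 9215 UMIs, and 24 in the others, at 2886. Ftl1 was at 7292 against 9384 CPM. C1qa was at 4099 CPM (3827 to 4386) in the 17 Lyz2-high members and at 3797 (3650 to 3947) in the other 164. Slc40a1 was at 117 CPM (75.0 to 174) in Lyz2-high members, with UMIs in 4 of 17, and at 4107 (3954 to 4263) in the others. Hmox1 was at 190 against 4735 CPM and Vcam1 at 936 against 3809 CPM. Of genes that the rule did not use, Cd5l was at 29.2 CPM (10.7 to 63.7) against 976 (903 to 1054), the integrin gene Itgad at 4.87 against 581 CPM, Ccr3 at 14.6 against 642 CPM and Adgre1, which encodes the F4/80 antigen, at 53.6 against 590 CPM. Lpl, the gene of lipoprotein lipase, had no UMI in any of the 17, while the others had 436 CPM. So Cd5l, Itgad, Ccr3, Adgre1 and Lpl, red pulp genes that the rule did not use, were low in these 17 cells.

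Other macrophage genes were high in the same cells. Apoe was at 12100 CPM in Lyz2-high members against 2458 in the others, and the MHC class II genes H2-Aa and H2-Eb1, whose products show peptides to CD4 T cells, were at 5269 against 1475 and 4718 against 876 CPM. The complement genes C3 and Cfb were at 1111 against 68.9 and 843 against 7.49 CPM. Fabp5, a fatty acid carrier, was at 2476 against 126 CPM, but 1 cell held 306 of its 508 UMIs in the Lyz2-high members. The phospholipase gene Pla2g2d was at 1521 against 49.4 CPM, with UMIs in 8 of the 17. The tetraspanin Cd63 was at 1097 against 16.5 CPM and the tryptophan and phenylalanine oxidase gene Il4i1 at 424 against 15.0 CPM. Classical monocyte markers were low in both sets: Ly6c2 had 1 UMI in the 17 Lyz2-high members and Ccr2 had 73.1 CPM, against 10.5 and 21.0 CPM in the others. The split used Lyz2 alone, but as the cells were regrouped on these same values the differences are a description.

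**Figure D2:**
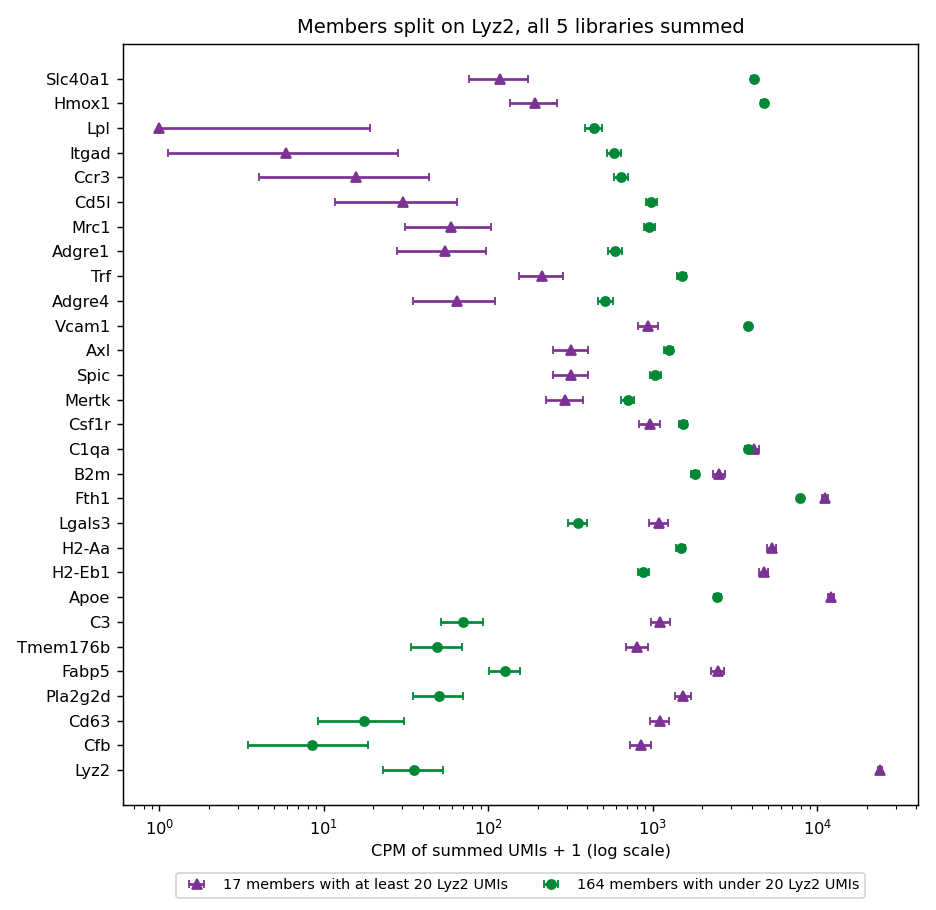
CPM plus 1 of summed UMIs (log scale) of 29 genes in the 17 members with at least 20 Lyz2 UMIs (triangles) and the 164 with fewer (circles), all libraries summed, with exact Poisson intervals (95%). Iron and red pulp genes at the top lie lower in the triangles, with Slc40a1 at 117 against 4107 CPM, and MHC class II, lipid and complement genes at the bottom lie higher, with Cfb at 843 against 7.49 CPM.

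With the Lyz2-high members left out, the iron genes of the live libraries lay closer to saline. Hmox1 was then at 3282, 4722, 3771, 5716 and 5719 CPM in live allogeneic, live isogeneic, apoptotic allogeneic, apoptotic isogeneic and saline members. Slc40a1 was at 3829, 4600, 3454, 4222 and 4688 CPM. The lower Hmox1 level of the apoptotic allogeneic members against the apoptotic isogeneic and saline ones, 3116 against 4992 and 5077 CPM before, thus stayed in this order, while live isogeneic Slc40a1 came close to saline. Fth1, the ferritin heavy chain that stores iron, was at 13850 CPM in live allogeneic members and at 6948 to 7899 CPM in the other 4 libraries, but at 8801 CPM in the live allogeneic members without the Lyz2-high cells, against 7277 to 8020 CPM. The light chain gene Ftl1 was at 8825, 7828, 8406, 9543 and 9703 CPM with all members in, in the same order as above. Cd163, the receptor for haemoglobin bound to haptoglobin, was at 241, 125, 149, 132 and 342 CPM, with UMIs in 8 of 18, 5 of 24, 17 of 51, 11 of 47 and 13 of 41 members, and in at most 0.0655% of B cells of any library. Without the Lyz2-high members Cd163 was at 450 CPM in live allogeneic members, at most 194 CPM in the live isogeneic, apoptotic allogeneic and apoptotic isogeneic ones and 391 CPM in saline ones.

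Summed over all members, Fcna and Cd5l were lower in both live libraries than in the apoptotic and saline ones. Fcna was at 729 (600 to 877) and 594 (468 to 744) CPM in live allogeneic and live isogeneic members, at 1744 and 1712 CPM in apoptotic allogeneic and apoptotic isogeneic members and at 1232 (1073 to 1408) in saline members. Without the Lyz2-high members it was at 1337, 922, 1834, 1576 and 1356 CPM, so that only the live isogeneic library remained well under saline. Cd5l was at 449, 328, 853, 1035 and 907 CPM, and at 839, 510, 1026, 1171 and 1037 CPM without those members, again with live isogeneic members lowest. Mertk, the receptor that binds apoptotic cells through Gas6 and protein S, was at 345, 493, 571, 589 and 987 CPM, so that all 4 infusions lay under saline, and at 523, 655, 573, 658 and 1037 CPM without the Lyz2-high members, where this order was unchanged against saline. Axl, its relative, was at 716, 821, 1117, 1238 and 1107 CPM and, without the Lyz2-high members, at 1131, 1129, 1266, 1374 and 1206 CPM.

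Marco, a scavenger receptor best known from marginal zone macrophages, was highest in the apoptotic allogeneic library. It was at 13.02 CPM in live allogeneic members (2 of 18 with a UMI), not detected in live isogeneic members (0 of 24, a floor of 3 counts being 23.5 CPM), and at 712 CPM in apoptotic allogeneic (17 of 51), 292 in apoptotic isogeneic (13 of 47) and 200 in saline members (8 of 41). In B cells at most 0.59% of a library had a UMI of Marco. A single apoptotic allogeneic cell held 81 of the 167 UMIs there, and without the Lyz2-high members, of which it was one, the levels were 24.3, 0, 448, 323 and 222 CPM. Timd4, a receptor for phosphatidylserine on dying cells, was at 78.1, 141, 264, 220 and 68.5 CPM, and at 146, 72.8, 83.3, 88.6 and 78.3 CPM without the Lyz2-high members, since 46 of the 62 apoptotic allogeneic UMIs came from 1 cell. Cd209b, which marks marginal zone macrophages, had no UMI in any member, and Siglec1, which marks metallophilic macrophages, was at 11.0 to 34.2 CPM.

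**Figure D3:**
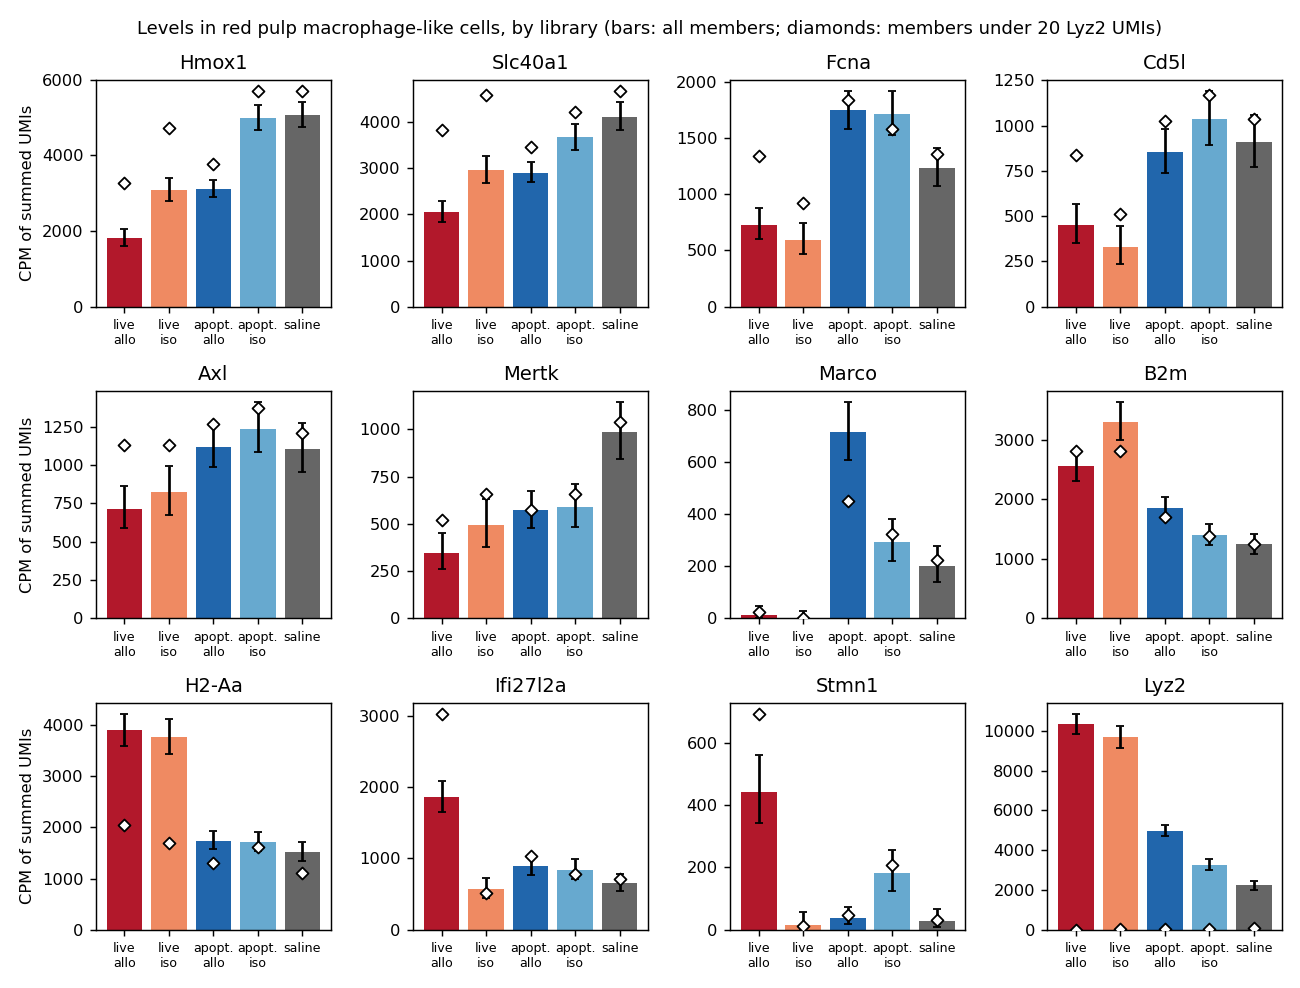
CPM of summed UMIs (linear axes from 0) of 12 genes in red pulp macrophage-like members of each library: bars for all members with exact Poisson intervals (95%), diamonds for the members under 20 Lyz2 UMIs. Marco is highest in the apoptotic allogeneic library (712 CPM), Ifi27l2a and Stmn1 in the live allogeneic (1855 and 442 CPM), and Hmox1 lies highest in the apoptotic isogeneic and saline libraries.

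The question of the study, whether allogeneic cells act beyond isogeneic ones, could be put as folds for apoptotic cells only. In the 51 apoptotic allogeneic against the 47 apoptotic isogeneic members, 7 of 14 NF-kappaB targets were at least 1.5-fold higher, against 12.3% of all 3540 genes measured. Of 9 cell cycle genes 8 were lower, against 15.9% of all genes. Few macrophage identity, lysosome and MHC genes lay that far apart. Against saline, the median log2 ratio of NF-kappaB targets was -0.14 in apoptotic allogeneic and -0.56 in apoptotic isogeneic members. That of cell cycle genes was 0.15 and 0.85 in the same order. Jun, an early response transcription factor, was at 776 against 275 CPM in apoptotic allogeneic against apoptotic isogeneic members, 2.82-fold (exact conditional Poisson interval 2.05 to 3.94). The fold of Jun was 1.74 with equal weight per cell and 4.39 without the Lyz2-high members. Nfkbiz, an inducible nuclear IkappaB protein, was 3.80-fold (1.90 to 8.40) higher, at 209 against 55.0 CPM and with UMIs in 11 of 51 and 8 of 47 members. Nfkbia, the inhibitor that NF-kappaB itself induces, was 2.46-fold (1.59 to 3.91) higher, but 1 cell held 34 of its 89 UMIs, and with 1000 UMIs drawn at random from each cell (thinning) the fold was 0.922. Hfe, the hemochromatosis protein of iron sensing, was 2.45-fold (1.44 to 4.34) higher, in 29 of 51 against 15 of 47 members, and lay between 1.84 and 2.90 in all 8 alternatives.

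Marco was 2.44-fold (1.78 to 3.39) higher in apoptotic allogeneic members, and 1.39-fold without the Lyz2-high members. The other genes of the 10 highest were the G protein regulator Rgs10 at 2.89-fold, the interferon-induced GTPase gene Gbp8 at 2.66-fold (1.44 to 5.22), Gm10076 at 2.65-fold, the chromatin remodeller Chd9 at 2.56-fold (1.11-fold after thinning) and the DNA methyltransferase Dnmt3a at 2.53-fold (1.40 to 4.86). At the low end, Wfdc17 was 0.212-fold (0.146 to 0.303), the chemokine gene Ccl6 0.292-fold (0.206 to 0.408) and the protease inhibitor Cst3 0.374-fold (0.324 to 0.432), with 0.144 to 0.965 over its alternatives. All 3 rest on few apoptotic isogeneic cells: 124 of the 146 UMIs of Wfdc17, 113 of the 130 of Ccl6 and 382 of the 598 of Cst3 there came from 1 cell each, and without the Lyz2-high members Wfdc17 was at 0.905-fold and Ccl6 at 2.18-fold. Lower folds spread over more cells were those of the translation gene Bzw1 at 0.323-fold (0.164 to 0.604), the RNA-binding protein gene Rbms1 at 0.421-fold, the respiratory chain gene Ndufb10 at 0.436-fold, the proteasome subunit Psma2 and the thioredoxin-like Txndc17, both at 0.456-fold, and the tubulin gene Tuba1c at 0.473-fold, which was 1.58-fold after thinning.

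Lists are described by how many of their genes with at least 20 UMIs lay at least 1.5-fold apart, beside all genes measured in the same way. Of 3540 genes measured in the apoptotic pair, 12.3% were higher and 15.9% lower in allogeneic members by this rule, with a median log2 ratio of -0.04. NF-kappaB target genes had 7 of 14 higher and 2 lower (median 0.50, and 0.15 with equal weight per cell). Beside Nfkbia and Nfkbiz, the survival gene Bcl2a1b, whose near-identical copies make its count uncertain, was at 1.69-fold (1.00 to 2.94), while the subunit gene Nfkb1 was at 0.645-fold (0.364 to 1.14). Dissociation and heat stress genes, which are induced when tissue is taken apart, had 8 of 20 higher and 0 lower (median 0.22, and 0.02 with equal weight per cell): Jund was 2.02-fold (1.40 to 2.97), Fosb 1.83-fold (1.13 to 3.05) and Egr1 5.68-fold (2.41 to 16.3) higher. Whether the handling of the spleens plays a part in the early response genes was not tested.

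Interferon-gamma response genes had 6 of 16 higher and 1 lower in apoptotic allogeneic members, with a median of 0.29. Beside Gbp8, the guanylate-binding protein Gbp2 was 2.93-fold (1.37 to 6.94) higher and the interleukin 18 antagonist Il18bp 1.82-fold (1.01 to 3.43). Type I interferon genes went both ways, with 6 of 24 higher and 5 lower and a median of 0.13: Lgals3bp, a secreted glycoprotein, was 1.61-fold (1.13 to 2.34) higher, and Ifitm3, which blocks virus entry, 0.638-fold (0.505 to 0.806). Cell cycle genes had 0 of 9 higher and 8 lower, with a median of -0.75 (-0.79 with equal weight per cell), and 1 apoptotic isogeneic cell held 197 of the 474 UMIs of the list there. The tubulin genes Tuba1b and Tubb5 were at 0.586-fold (0.414 to 0.825) and 0.584-fold (0.390 to 0.871), and Stmn1, a tubulin regulator of dividing cells, at 0.211-fold (0.0889 to 0.451), with UMIs of Stmn1 in 4 of 51 and 3 of 47 members and 21 of the 33 apoptotic isogeneic UMIs in 1 cell. Of the other lists, iron and heme recycling had 3 of 15 higher and 0 lower (median 0.16), NRF2 and antioxidant genes 0 of 17 and 2 (-0.18), apoptotic cell uptake 1 of 17 and 3 (-0.06), LXR and cholesterol handling 0 of 15 and 2 (-0.16), complement and Fc receptors 2 of 15 and 2 (-0.08). Lysosome genes had 2 of 29 higher and 2 lower (0.02), macrophage identity 1 of 27 and 1 (0.12), MHC class II 0 of 10 and 0 (0.12), MHC class I 1 of 15 and 0 (0.02), cytokines and chemokines 3 of 12 and 4 (0.02) and checkpoint ligands 1 of 16 and 2 (-0.11).

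**Figure D4:**
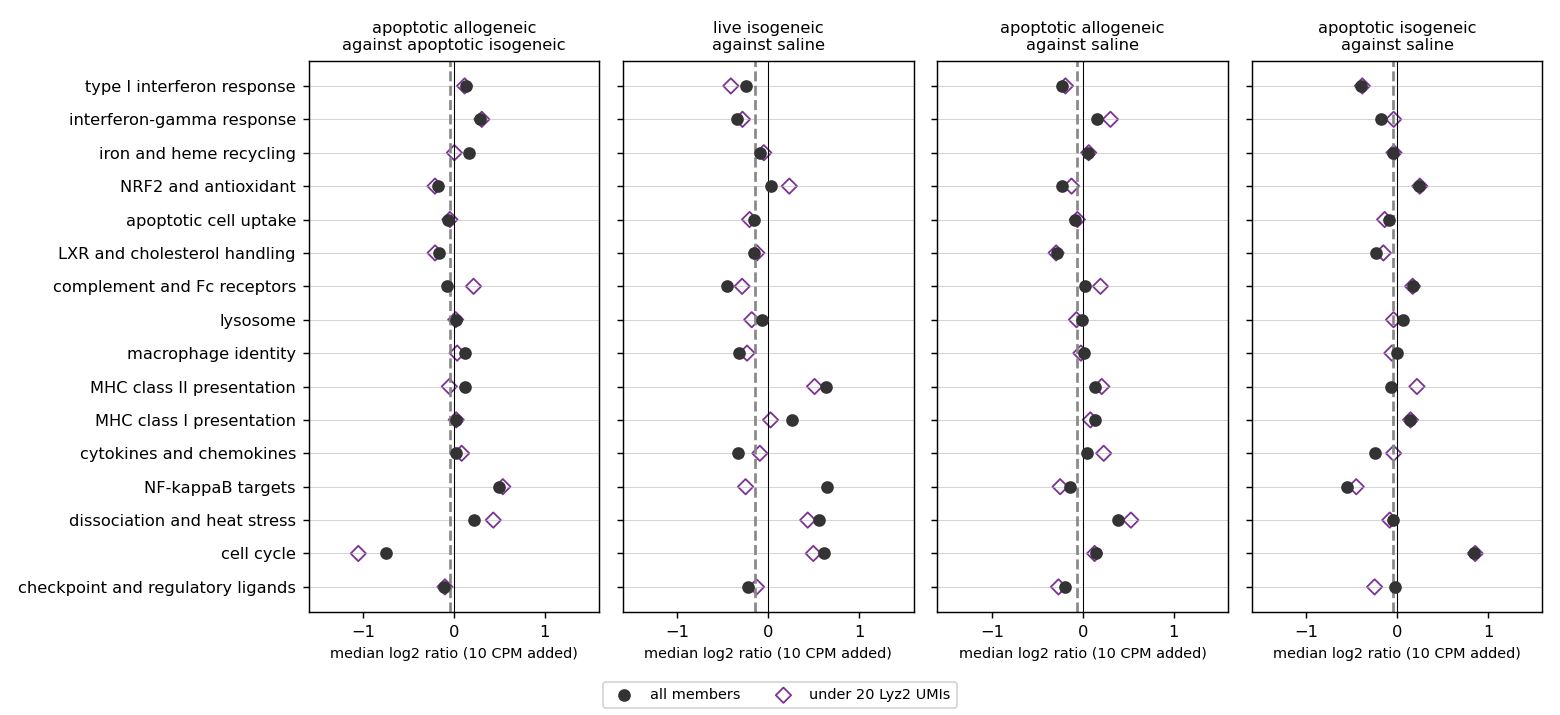
Median log2 ratio (10 CPM added) of 16 gene lists in the 4 comparisons, with all members (filled circles) and with members under 20 Lyz2 UMIs (open diamonds); the dashed line is the median of all genes measured. NF-kappaB targets lie at 0.50 and cell cycle genes at -0.75 in apoptotic allogeneic against apoptotic isogeneic members; in live isogeneic against saline members the NF-kappaB median changes sign without the Lyz2-high members.

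Summed MHC class II levels were higher in live isogeneic than in saline members. In the live isogeneic library 1 cell held 31.6% of the UMIs of this list. Of 2684 genes measured, 13.2% were at least 1.5-fold higher and 24.0% lower in the 24 live isogeneic against the 41 saline members, with a median log2 ratio of -0.14. When libraries were scaled by the median of gene ratios, 499 genes lay higher and 486 lower, against 353 and 644 with totals, and the median of all genes moved to 0.00. MHC class II genes had 6 of 10 higher and 1 lower (median 0.64). H2-Aa was at 3762 against 1512 CPM, 2.49-fold (2.14 to 2.90), H2-Eb1 at 3840 against 804 CPM, 4.77-fold (3.95 to 5.80), and Cd74, the chain that escorts class II, 1.68-fold (1.53 to 1.85) higher. Without the Lyz2-high members the median was 0.51, H2-Aa stood at 1699 against 1109 CPM and H2-Eb1 at 1311 against 561 CPM. Among the live isogeneic members then left, 1 cell held 70 UMIs of H2-Aa and each other cell at most 16. That cell, with 6637 UMIs in all, thus made up a large part of the live isogeneic H2-Aa level then left. Class II levels without it were not computed. MHC class I genes had 5 of 16 higher and 0 lower (median 0.26, and 0.02 without the Lyz2-high members). Read per cell after thinning to 1000 UMIs, the class II list had medians of 8.5, 9, 10, 7 and 6 UMIs in live allogeneic, live isogeneic, apoptotic allogeneic, apoptotic isogeneic and saline members, against 19 to 24 in B cells.

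B2m, the light chain that every class I molecule needs, was higher in both live libraries. It was at 2558 (2311 to 2823) CPM in live allogeneic members, 3300 (2993 to 3631) in live isogeneic, 1850 (1680 to 2033) in apoptotic allogeneic, 1392 (1226 to 1575) in apoptotic isogeneic and 1238 (1079 to 1414) in saline members. The live libraries kept this place without the Lyz2-high members, at 2808 and 2804 CPM against 1703, 1386 and 1245 CPM. B2m was 2.67-fold (2.26 to 3.15) higher in live isogeneic against saline members and 1.495-fold (1.27 to 1.77) in apoptotic allogeneic against saline members. In B cells of the same libraries B2m was at 1582, 1259, 821, 738 and 763 CPM, again with the live libraries highest, so that this order was not limited to the macrophage-like cells.

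Of the 5 highest named genes of the live isogeneic library against saline, some turned on the Lyz2-high members and others were high in the whole library. Cfb was 12.2-fold (6.72 to 24.4) higher, Cd63 6.66-fold (3.71 to 12.8) and Il4i1 6.48-fold (3.34 to 13.8), but without the Lyz2-high members Cfb was at 0.620-fold and Cd63 at 1.86-fold. Gm42418, which overlaps ribosomal RNA sequence, was at 80720 against 12700 CPM, 6.35-fold, and its overlapping neighbour AY036118 at 5.24-fold. Gm42418 was also high in the other cells of the live isogeneic library, at 57450 CPM against 14000 to 17000 CPM in the other 4 libraries, and its part in the lower levels of other genes there was not tested. At the low end, Cd5l was 0.362-fold (0.251 to 0.512), and 0.492-fold without the Lyz2-high members. Ubap2l, a stress granule gene, was 0.257-fold (0.111 to 0.530), the splicing regulator Tra2a 0.313-fold, the inhibitory receptor Siglece 0.332-fold (0.175 to 0.590) and the transcriptional repressor Zfp703 0.343-fold.

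Macrophage identity genes had 9 of 27 lower and 3 higher in the same comparison, near the 24.0% of all genes that were lower, with a median of -0.33 (-0.18 with the median of gene ratios as the scale). Fcna was 0.482-fold (0.366 to 0.629), Mertk 0.499-fold (0.368 to 0.670), Nr1h3 0.510-fold (0.349 to 0.732) and Csf1r 0.616-fold, while Mrc1 was 1.56-fold (1.19 to 2.05) higher. NRF2 and antioxidant genes had 6 of 18 higher and 2 lower (median 0.03), with thioredoxin, Txn1, at 1.98-fold (1.47 to 2.67) and its reductase Txnrd1 at 2.33-fold (1.35 to 4.08). Dissociation and heat stress genes had 10 of 20 higher and 2 lower (0.56, and 0.43 without the Lyz2-high members), and NF-kappaB targets 8 of 15 and 3 (0.65, but -0.25 without them). Of type I interferon genes 3 of 24 were higher and 6 lower (-0.25), with Isg15 at 5.14-fold, Irf7 at 3.39-fold (1.89 to 6.35) and Bst2 at 2.03-fold (1.24 to 3.38) higher and Rsad2 at 0.300-fold (0.112 to 0.692). One live isogeneic cell held 22 of the 30 UMIs of Isg15 there and 1 cell 35 of the 42 of Irf7. Interferon-gamma genes had 1 of 13 higher and 4 lower (-0.35), iron and heme recycling 4 of 16 and 4 (-0.09), apoptotic cell uptake 1 of 15 and 5 (-0.15), complement and Fc receptors 2 of 11 and 4 (-0.45) and lysosome genes 3 of 27 and 2 (-0.06). LXR and cholesterol handling had 1 of 15 higher and 2 lower (-0.16), cytokines and chemokines 1 of 10 and 3 (-0.33), the cell cycle 3 of 5 and 0 (0.61) and checkpoint ligands 3 of 18 and 4 (-0.23).

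Apoptotic allogeneic members had higher Fos and Marco and lower Cd163 levels than saline ones. Of 3530 genes measured, 10.8% were at least 1.5-fold higher and 16.7% lower, with a median of -0.06. With the median of gene ratios as the scale, 499 were higher and 511 lower, against 380 and 588. Fos, an early response factor, was 4.90-fold (2.41 to 11.2) higher in apoptotic allogeneic against saline members, at 252 against 51.3 CPM and in 13 of 51 against 4 of 41 cells. Marco was 3.57-fold (2.47 to 5.29) higher, and 2.02-fold without the Lyz2-high members, Nfkbiz 3.66-fold (1.83 to 8.11) and the pseudogene Ndufb1-ps 2.99-fold (1.64 to 5.82). Timd4 was 3.86-fold higher, but 1.07-fold without the Lyz2-high members. Cd163 was 0.436-fold (0.279 to 0.672), between 0.366 and 0.677 in all 8 alternatives, and Mat2a, which makes the methyl donor of the cell, 0.439-fold (0.284 to 0.669). Emc10, of a membrane protein insertion complex, was 0.243-fold (0.119 to 0.464), the non-coding 4632427E13Rik 0.385-fold and the HMG-box gene Bbx 0.406-fold.

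By list, apoptotic allogeneic against saline members had 0 of 26 type I interferon genes higher and 9 lower (median -0.23). The helicase gene Ifih1, a sensor of viral RNA, was at 0.412-fold (0.209 to 0.785) and Trim30a at 0.539-fold (0.357 to 0.807). With a mitochondrial limit of 5% the type I interferon median turned positive against saline, at 0.11 in live isogeneic, 0.36 in apoptotic allogeneic and 0.15 in apoptotic isogeneic members. Dissociation and heat stress genes had 5 of 20 higher and 0 lower (0.38), with Jun at 2.12-fold (1.59 to 2.87), Klf2, a quiescence factor, at 3.95-fold (1.74 to 10.5) and the phosphatase Dusp1 at 2.48-fold (1.39 to 4.64). LXR and cholesterol genes had 0 of 17 higher and 4 lower (-0.28), among them Lipa, the lysosomal acid lipase, at 0.643-fold (0.504 to 0.819) and Lpl at 0.574-fold (0.410 to 0.800). Macrophage identity had 4 of 27 higher and 3 lower (0.01), with Mrc1 at 1.66-fold (1.31 to 2.12) and Mertk at 0.579-fold (0.459 to 0.730), and iron and heme recycling 2 of 16 and 2 (0.06). NF-kappaB targets had 4 of 14 higher and 2 lower (-0.14), MHC class II 0 of 11 and 0 (0.14), MHC class I 1 of 16 and 0 (0.13) and the cell cycle 0 of 5 and 0 (0.15). Interferon-gamma genes had 2 of 14 higher and 2 lower (0.16), NRF2 and antioxidant genes 1 of 18 and 2 (-0.23), apoptotic cell uptake 1 of 17 and 3 (-0.08), complement and Fc receptors 0 of 14 and 1 (0.03), lysosome genes 2 of 30 and 2 (-0.01), cytokines and chemokines 1 of 11 and 3 (0.04) and checkpoint ligands 1 of 18 and 4 (-0.20).

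Apoptotic isogeneic against saline members had 13.1% of 3204 genes higher and 16.0% lower, with a median of -0.04. Their highest genes again rested on single cells: Ccl6 was 7.38-fold and Wfdc17 5.87-fold higher, but 0.971-fold and 0.925-fold without the Lyz2-high members, and Timd4 3.22-fold but 1.13-fold without them. Arf5, a GTPase of the secretory path, was 2.62-fold (1.56 to 4.55) higher and Dusp1 2.59-fold (1.43 to 4.93). Cd163 was 0.386-fold (0.230 to 0.629), the sialyltransferase St8sia4 0.289-fold (0.138 to 0.563), Dnmt3a 0.295-fold (0.154 to 0.536), C3 0.337-fold (0.174 to 0.618) and the RNA-binding protein gene Pum2 0.373-fold. All comparisons with saline share the same 41 members, so that the like direction of Cd163 and Mertk in them is not independent.

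Cell cycle genes had 8 of 10 higher and 0 lower in apoptotic isogeneic against saline members, with a median of 0.85. One apoptotic isogeneic cell held 41.6% of the UMIs of this list there, and with equal weight per cell the median was 0.56. Tubb5 was 1.96-fold (1.25 to 3.15), Hmgb2, a chromatin protein, 2.38-fold (1.27 to 4.67) and Stmn1 6.37-fold (2.47 to 20.9) higher, the last from 3 cells. Type I interferon genes had 1 of 26 higher and 11 lower (-0.40), with Rsad2, an antiviral enzyme, at 0.151-fold (0.0459 to 0.390) and Lgals3bp at 0.605-fold (0.411 to 0.882). NF-kappaB targets had 1 of 12 higher and 6 lower (-0.56), with Cd83 at 0.538-fold (0.313 to 0.907) and Rel at 0.386-fold (0.165 to 0.832). Interferon-gamma genes had 0 of 14 higher and 5 lower (-0.18), NRF2 and antioxidant genes 3 of 17 and 2 (0.24), LXR and cholesterol handling 2 of 16 and 4 (-0.24), apoptotic cell uptake 2 of 16 and 4 (-0.09), iron and heme recycling 0 of 15 and 3 (-0.05), lysosome 3 of 29 and 4 (0.06), macrophage identity 1 of 27 and 3 (0.00) and MHC class II 0 of 11 and 1 (-0.07, but 0.22 without the Lyz2-high members). Complement and Fc receptors had 1 of 13 higher and 1 lower (0.17), MHC class I 0 of 14 and 0 (0.15), cytokines and chemokines 3 of 13 and 4 (-0.24), dissociation and heat stress 3 of 20 and 2 (-0.04) and checkpoint ligands 0 of 16 and 1 (-0.03).

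Interferon genes were read per cell as well, since a few deep cells weigh on the sums. Each cell was thinned to 1000 UMIs, and UMIs of the 48 type I interferon genes in the table were counted. The median per cell was 13 in live allogeneic members, 6.5 in live isogeneic, 7 in apoptotic allogeneic, 6 in apoptotic isogeneic and 8 in saline members. So the live allogeneic members stood above the other 4 libraries, which lay close together. B cells of the same libraries had means of 9.80, 5.15, 5.08, 5.63 and 6.15 such UMIs. Non-classical monocyte-like cells, chosen on Ace, Adgre4, Cd300e, Eno3 and Pglyrp1, had 9.50, 6.01, 5.65, 6.50 and 5.42. These monocyte-like cells are a mixed set by their markers. Neutrophil markers were at 1943 to 7232 CPM in them, above the 783 to 1235 CPM of non-classical monocyte markers. The live allogeneic library had the highest mean of type I interferon UMIs in each of the 2 cell sets. At least 3 such UMIs were found in 18 of 18, 21 of 24, 51 of 51, 42 of 47 and 41 of 41 members, a share too near its ceiling to order the libraries. Before thinning all but 1 of the 181 members, a live isogeneic cell, had as many.

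**Figure D5:**
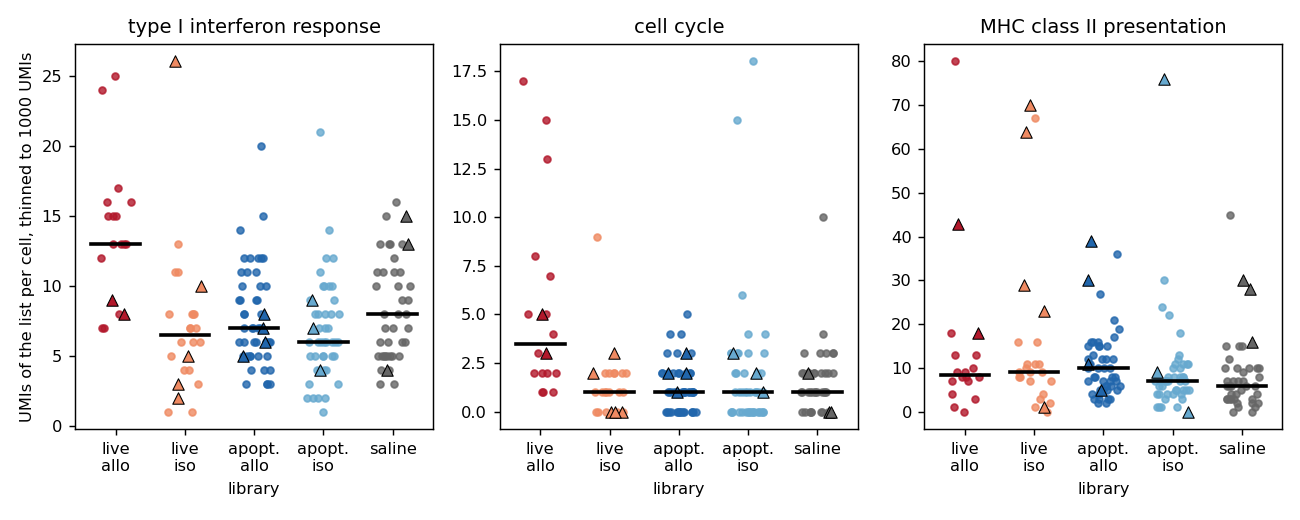
UMIs of 3 gene lists in each member after thinning to 1000 UMIs, by library; points are cells, triangles members with at least 20 Lyz2 UMIs, and bars medians. Live allogeneic members have a median of 13 type I interferon UMIs against 6 to 8 in the other libraries.

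Among single interferon genes, Ifi27l2a, a mitochondrial interferon-stimulated gene, was highest in the live allogeneic library. It was at 1855 CPM (1646 to 2083) in live allogeneic members, with UMIs in 18 of 18, and at 571, 887, 842 and 650 CPM in live isogeneic (17 of 24), apoptotic allogeneic (40 of 51), apoptotic isogeneic (34 of 47) and saline members (29 of 41). Without the Lyz2-high members it was at 3027, 510, 1026, 779 and 717 CPM. Ifi27l2a was found in 54.1% to 88.5% of B cells, at 1547, 594, 538, 706 and 581 CPM, so that B cells are no background for it. Bst2, tetherin, which holds virus particles at the cell surface, was at 404, 336, 205, 187 and 165 CPM, and at 243, 182, 151, 184 and 163 CPM without the Lyz2-high members. The immunoproteasome gene Psmb9 was at 306, 117, 93.8, 105 and 91.3 CPM, again highest in the live allogeneic library.

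The promoters of the interferon-induced genes B2m, Isg15 and Bst2 are shown since the summed levels of all 3, with all members in, were highest in the live libraries. Isg15 (an ubiquitin-like protein) was at 137, 235, 51.2, 38.5 and 45.6 CPM. Without the Lyz2-high members live isogeneic Isg15 was at 97.1 CPM. Bst2 was then at 182 CPM in live isogeneic and 184 CPM in apoptotic isogeneic members, so that its order did not hold. Each sequence is the 60-base stretch around the interferon response motif, from RefSeq on GRCm38.p6, with GAAANNGAAA matches on the strand of the gene in capitals.
B2m, chr2:122147523-122147582, + strand: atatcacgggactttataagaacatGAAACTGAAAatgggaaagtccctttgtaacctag
Isg15, chr4:156200862-156200921, - strand: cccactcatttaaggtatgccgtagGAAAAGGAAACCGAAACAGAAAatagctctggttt
Bst2, chr8:71537568-71537627, - strand: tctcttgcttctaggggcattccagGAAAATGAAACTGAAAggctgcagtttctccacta
Isg15 holds 3 overlapping matches, Bst2 2 and B2m 1, and their first bases lie 78, 130 and 139 bases before the gene's start. GAAANNGAAA was searched on both strands from 250 bases before to 50 after each start. It was found in 22 of 36 type I interferon genes with a promoter (61.1%), 11 of 20 interferon-gamma genes and 5 of 20 MHC class I genes. Over all genes with a promoter it was found in 1079 of 27025 (3.99%), a gene counting if any of its promoters had a match. Counted by promoter, 1131 of 32851 had it (3.44%). It was found in 1 of 11 MHC class II genes, 1 of 23 iron genes and 0 of 27 cell cycle genes. A match describes the letters and is no measure of binding.

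Cell cycle genes marked a part of the live allogeneic members. After thinning to 1000 UMIs, at least 3 UMIs of 33 such genes were found in 11 of 18 live allogeneic members (61.1%, 35.8 to 82.7), 2 of 24 live isogeneic (8.33%, 1.03 to 27.0), 7 of 51 apoptotic allogeneic (13.7%), 12 of 47 apoptotic isogeneic (25.5%, 13.9 to 40.4) and 7 of 41 saline members (17.1%, 7.15 to 32.1). In B cells these shares were 11.3%, 15.0%, 13.1%, 10.4% and 10.8%, at median depths of 4003, 3140, 3098, 1823 and 2406 UMIs, and in non-classical monocyte-like cells 51.0%, 38.1%, 30.8%, 31.3% and 33.1%. The intervals of the live isogeneic, apoptotic allogeneic and saline shares hold the B cell share of the same library, and those of the live allogeneic and apoptotic isogeneic shares lie above it. The live allogeneic and apoptotic isogeneic intervals hold the share of the non-classical monocyte-like cells of their library, 51.0% and 31.3%. Those of the live isogeneic and saline shares lie under it. The monocyte-like cells are the mixed set described above. Unthinned shares were 100%, 75.0%, 68.6%, 61.7% and 68.3%. Stmn1 had UMIs in 9 of 18 live allogeneic members, 2 of 24 live isogeneic, 4 of 51 apoptotic allogeneic, 3 of 47 apoptotic isogeneic and 5 of 41 saline members, against 4.81% to 9.63% of B cells, at 442 (344 to 561), 15.6, 38.4, 182 and 28.5 CPM. Mki67 and Top2a, both of dividing cells, were at 215 and 241 CPM in live allogeneic members and at most 77.1 and 116 CPM in the other libraries, but 1 live allogeneic cell held 23 of the 33 UMIs of Mki67 and 1 cell 29 of the 37 of Top2a.

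Markers of other cell types show which sums rest on a single barcode. B cell markers summed to 91.1, 1111, 7494, 792 and 1455 CPM in live allogeneic, live isogeneic, apoptotic allogeneic, apoptotic isogeneic and saline members, against 4054 to 7485 CPM in the other cells, and 88.5% of the apoptotic allogeneic UMIs came from 1 cell. Plasma cell markers in that library were at 1799 CPM, with 90.5% from 1 cell, and neutrophil markers at 759 CPM, with 96.6% from 1 cell. Platelet markers were at 0 in 4 libraries and, in the apoptotic isogeneic one, in 1 cell only, and NK cell markers were at 0 to 34.2 CPM. Erythroid markers were at 599, 3707, 1070, 220 and 536 CPM, with 78.3% of the live isogeneic UMIs from 1 cell, and marginal zone and metallophilic macrophage markers at 677, 571, 1394, 727 and 782 CPM, with 56.3% of the apoptotic allogeneic UMIs from 1 cell. Classical monocyte markers were at 506 CPM in apoptotic isogeneic members, with 94.6% from 1 cell, and at 21.3 to 79.9 CPM in the other libraries. Non-classical monocyte markers were at 618 to 989 CPM and cDC1 markers at 328 to 749 CPM, spread over more cells. T cell markers were at 79.9 to 124 CPM, cDC2 markers at 45.6 to 148, pDC markers at 0 to 46.9, mature DC markers at 11.0 to 93.9 and stromal and endothelial markers at 32.5 to 171 CPM. The part of these barcodes in the results above was not tested beyond the alternatives given. More than 1 UMI of Cd79a, Cd79b and Ms4a1 was found in 2, 5, 6, 8 and 5 members. No doublet caller was run on so few cells. Malat1, a nuclear RNA that most cells hold, had no UMI in 39.2% (25.8 to 53.9) of the apoptotic allogeneic members thinned to 1000 UMIs, against 22.2%, 8.33%, 8.51% and 14.6% of live allogeneic, live isogeneic, apoptotic isogeneic and saline members, and 1.31% to 9.16% of the other cells. Before thinning, 19 of the 51 apoptotic allogeneic members were without it. These had a median of 1390 UMIs, against 6214 in those with it, and all of them count in the share of that library. What such barcodes are was not tested.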

How the data were processed

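Single-cell 3' RNA was measured in 5 libraries of spleen cells, 1 per infusion. The authors deposited a table of UMI counts per gene and barcode for each library; per the submitters' processing notes these were made with Cell Ranger 4.0 and the mm10 genome. The count tables held every barcode in 4 libraries, while the apoptotic allogeneic one held 2491 barcodes, none under 500 UMIs. Cells, members and sums were computed from the counts in Python 3.11.15 with numpy 2.4.6, scipy 1.17.1 and pandas 2.3.3, and figures drawn with matplotlib 3.10.9. Members' UMIs were summed per library (127869 to 234583 UMIs), scaled to a total of 1000000 (CPM), and given exact Poisson intervals; folds have exact conditional Poisson intervals. Log2 ratios add 10 CPM, and a gene needed 20 UMIs in the 2 sums. With 1 library a group there is no test. Doublets were not called; members with over 1 B cell UMI were left out as an alternative.

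The genes named were the 10 highest and 10 lowest log2 ratios for apoptotic allogeneic against apoptotic isogeneic members and the 5 highest and 5 lowest for each infusion against saline, among genes with at least 50 UMIs in the 2 sums, a UMI in at least 20% of the members of 1 library and a CPM at least 0.5 of that in other cells. Genes of the rule, immunoglobulin, T cell receptor, haemoglobin, mitochondrial, ribosomal and sex-linked genes were left out of this choice. The 25 leading genes have the largest smallest ratio over other cells. The members and the 31 gene lists (16 of pathways, 15 of other cell types) were chosen with earlier results of these data known; 3 list genes were not in the table. The split on Lyz2, the alternative on Malat1 and the deepest cells were added after the values were seen. Promoters came from RefSeq on GRCm38.p6. The computation was tested on simulated data. Some genes that these rules choose are not reported here.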

Additional observations from a re-analysis of the deposited data

How the results depend on the processing

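No paired analysis was possible because each group has 1 library. The members of a library are few, and depth limits low genes: a gene with 20 UMIs in 2 sums has a wide counting interval. Folds of named genes, 86 in all, took 681 values under alternatives, of which 577 lay inside the main interval and 46 on the other side of 1, 7 of these where the main interval left out 1. Of 628 alternative list medians, 550 lay within 0.25 of the main one. The sign differed in 108, and in 8 of these the main median was at least 0.25 in size. For the values below the cause was not tested.

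With at least 20 C1q UMIs the share of members was 0.2985% in the live isogeneic, 1.464% in the apoptotic allogeneic, 0.5016% in the apoptotic isogeneic and 0.8959% in the saline library. With cells thinned to 2000 UMIs it was 0.3116% in the live isogeneic, 1.392% in the apoptotic allogeneic and 0.9631% in the saline library, and with a mitochondrial limit of 5% it was 1.267% in the apoptotic allogeneic, 0.4574% in the apoptotic isogeneic and 0.9698% in the saline library. Genes at least 1.5-fold apart numbered 1001 in apoptotic allogeneic against apoptotic isogeneic members, and 997, 968 and 935 in live isogeneic, apoptotic allogeneic and apoptotic isogeneic against saline members. In this order they numbered 645, 491, 595 and 477 with the limit of 5%, 196, 181, 237 and 189 after thinning to 1000 UMIs, 367, 607, 397 and 410 with 50 CPM added, and 227, 261, 216 and 199 with a minimum of 50 UMIs.

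The MHC class II median in apoptotic allogeneic against apoptotic isogeneic members was -0.249 with the limit of 5% and -0.2698 after thinning. In live isogeneic against saline members it was 1.003 with 20 C1q UMIs and 1.181 with the limit of 5%, and in apoptotic isogeneic against saline members 0.2376 with that limit, 0.2421 with equal weight per cell and 0.2178 without the Lyz2-high members. The type I interferon median with the limit of 5% was 0.1071, 0.3616 and 0.1464 in live isogeneic, apoptotic allogeneic and apoptotic isogeneic against saline members, and after thinning -0.5159 in live isogeneic and -0.06348 in apoptotic isogeneic against saline members. In live isogeneic against saline members the sign also changed, from a main median of at least 0.25 in size, for cytokines (0.02439 with 20 C1q UMIs), interferon-gamma genes (0.2605 with the limit of 5%), MHC class I (-0.1744 after thinning) and NF-kappaB targets (-0.03802 with equal weight, -0.2562 with a minimum of 50 UMIs, -0.2503 without the Lyz2-high members). LXR genes changed sign in apoptotic allogeneic against saline members with the limit of 5% (0.1464). In apoptotic allogeneic against apoptotic isogeneic members, Cd74 was 0.9538-fold with the limit of 5%, Nfkbia 0.9216-fold and Tuba1c 1.58-fold after thinning, and Ccl6 2.178-fold without the Lyz2-high members. Without those members, Cfb was 0.6205-fold in live isogeneic, and Ccl6 0.9707-fold and Wfdc17 0.9245-fold in apoptotic isogeneic against saline members.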
